A study of Mus musculus with 12 samples.

Results

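Adnp and Deaf1, a pair of genes that encode regulators of transcription in the developing nervous system, were followed through eIF4G2 CLIP of resting and depolarized cortical neurons. Their 5′ UTRs were found by gene name in the tables of tags, where they are 2 of 3366 named 5′ UTRs. Both were chosen by their tags per library and condition, whose sums were higher after depolarization, so the contrast of resting with depolarized libraries is given for them as a description without a test.

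The experiment asked on which 5′ UTRs the contact of eIF4G2 changes when neurons are depolarized. In CLIP, ultraviolet light joins a protein to the RNA it touches, the protein is immunoprecipitated, and the attached RNA fragments are sequenced as tags. The cells were primary cortical neurons from embryos of CD-1 mice, with no genetic change named in the sources, grown in culture, and a replicate was pooled from several dishes. Resting neurons received cycloheximide for 2 min before crosslinking. Depolarized neurons received tetrodotoxin and DL-AP5 for 2 h to silence firing, 55 mM KCl for 1 h, 30 min of recovery and then the same cycloheximide treatment, so the inhibitor of translation elongation was present in both groups and the silencing drugs in 1 of them. Potassium chloride acts on the whole dish and need not activate every neuron in it, and a dish holds a mixture of neuron types. An altered share of some cells and an altered amount of RNA or of eIF4G2 contact per cell cannot be told apart here.

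ADNP is a homeodomain and zinc finger protein that joins the helicase CHD4 and heterochromatin protein HP1 in the ChAHP complex, and de novo mutations of its gene cause a syndrome of intellectual disability and autism. DEAF1 is a transcription factor with a DNA-binding SAND domain and a MYND zinc finger, and mutations of its gene cause intellectual disability with impaired speech. eIF4G2 (DAP5) resembles the scaffold of the cap-binding complex but lacks the part that holds the cap-binding protein, and it is known for initiation on messages with structured 5′ UTRs or short upstream open reading frames.

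The Adnp gene (ENSMUSG00000051149.15) lies on the minus strand of chromosome 2 from 168180986 to 168207112 in the GRCm38 build. Its longest annotated transcript, Adnp-202, has a 5′ UTR of 544 bases, of which 539 are in exon 1 (168206574 to 168207112) and 5 in exon 2 (168189390 to 168189394). This 5′ UTR holds 4 copies of CGCGGC, the hexamer that the study names as its leading crosslinked motif. They are shown because the Deaf1 5′ UTRs described below hold none. The 3 windows below are each 30 bases on the minus strand, written 5′ to 3′, and capitals mark the hexamer, of which the last window has 2 copies without a gap.
Adnp hexamer at base 259 of the 5′ UTR, chr2:168206837-168206866: gccgaggagccgCGCGGCcgtcgccgcccg
Adnp hexamer at base 301, chr2:168206795-168206824: cgacggtgaagcCGCGGCcccacgccctcc
Adnp hexamers at bases 403 and 409, chr2:168206693-168206722: cccggcagcagcCGCGGCCGCGGCtcgagc

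Adnp-202 also has 1 upstream ATG, the possible start of a short upstream open reading frame. It stands at base 136 of the 5′ UTR, and its frame runs 2 codons before a stop that is still inside the 5′ UTR. The other annotated transcript, Adnp-201, starts further downstream and includes an extra exon. Its 5′ UTR of 529 bases has the same 4 hexamers and 2 upstream ATGs, of which 1 opens a frame of 10 codons that ends inside the 5′ UTR. The frame of the other, of 69 codons, runs past the start codon of the coding sequence in a different frame. The windows around the ATG of Adnp-202 and the one of Adnp-201 that closes within the 5′ UTR are shown, and capitals mark the ATG. The Deaf1 5′ UTRs described below have no upstream ATG.
Adnp-202 upstream ATG, chr2:168206960-168206989: ccgccgggacccATGagctgagcgcccgcc
Adnp-201 upstream ATG, chr2:168204710-168204739: ttttacatcgtgATGcacagggttgcactt

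The Deaf1 gene (ENSMUSG00000058886.9) lies on the minus strand of chromosome 7 from 141297180 to 141327690. Its longest annotated transcript, Deaf1-209, has a 5′ UTR of only 8 bases, and Deaf1-201 has 102 bases (141327571 to 141327672). Neither holds CGCGGC or an upstream ATG, so no Deaf1 window is shown. The tables name the transcripts by UCSC identifiers, which were not matched to these models, so the exact 5′ UTR over which the Deaf1 tags were counted was not determined here. RefSeq places 1 Deaf1 start 35 bases and another 11093 bases upstream of the gene as drawn above. No CGCGGC was found on either strand of the RefSeq promoter windows (250 bases before to 50 after each start) at these starts or at that of Adnp, and 18.1% of all 32817 windows hold it.

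**Figure D1:**
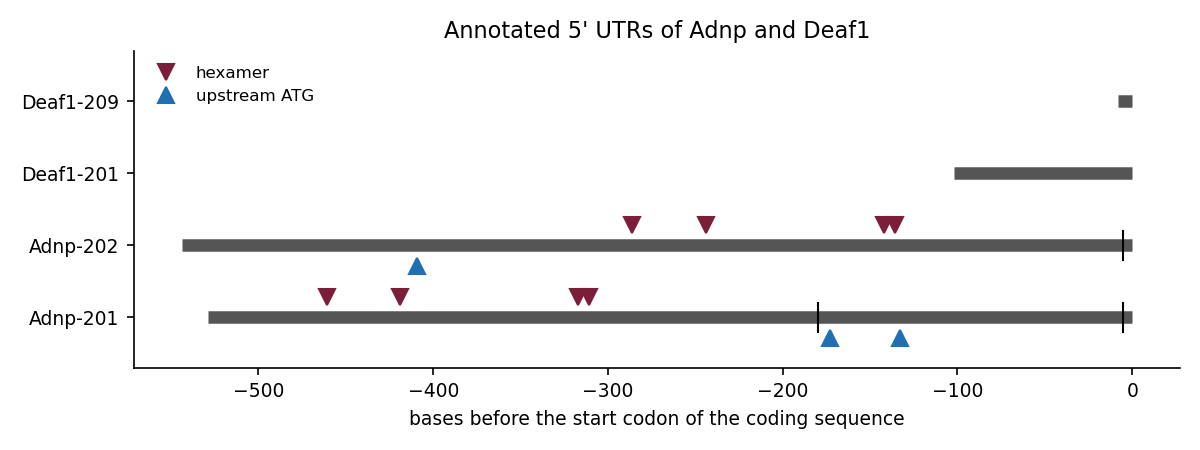
Map of the annotated 5′ UTRs of Adnp and Deaf1, drawn to scale as bases before the start codon of the coding sequence. Grey bars are the 5′ UTRs, black ticks the exon borders, red triangles the first bases of the hexamer and blue triangles upstream ATGs. Both Adnp transcripts carry 4 hexamers, and the Deaf1 transcripts carry none.

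Against the other listed genes, the 5′ UTR of Adnp is long and rich in G and C. Of 3302 listed genes with an annotated 5′ UTR on their longest transcript, 80.2% had a shorter one than Adnp-202, with a median of 306.5 bases. Its GC content of 78.5% exceeded that of 91.2% of them, with a median of 65.9%. Its 4 hexamers were more than 97.9% of the 5′ UTRs had, and 36.8% had at least 1. Long, GC-rich 5′ UTRs hold more copies of a GC-only hexamer. Among the 80 5′ UTRs within 100 bases and 5 percentage points of GC of Adnp, 88.8% had at least 1 copy, the median was 2 copies, and 19 (23.8%) had 4 or more. An upstream ATG was present in 66.6% of the listed 5′ UTRs, with a median of 1, so Adnp stands at the middle by this measure.

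Deaf1 stands at the other end by length. With the longest 5′ UTR of each gene, 5.70% of 3316 were shorter than the 102 bases of Deaf1-201, while its GC content of 76.5% exceeded that of 88.4%. With these choices 36.0% of the 5′ UTRs had the hexamer and 73.2% an upstream ATG, and Deaf1 had neither. On its longest transcript, Deaf1-209, the GC content was 62.5%, below the median of 65.9% and above that of 37.0% of the 5′ UTRs. Adnp and Deaf1 thus differed in length, hexamers and upstream ATGs with either Deaf1 transcript read here. Whether they share a high GC content depends on which one was counted. A 5′ UTR from the RefSeq start 11093 bases upstream was not read, so the contrast does not cover it.

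**Figure D2:**
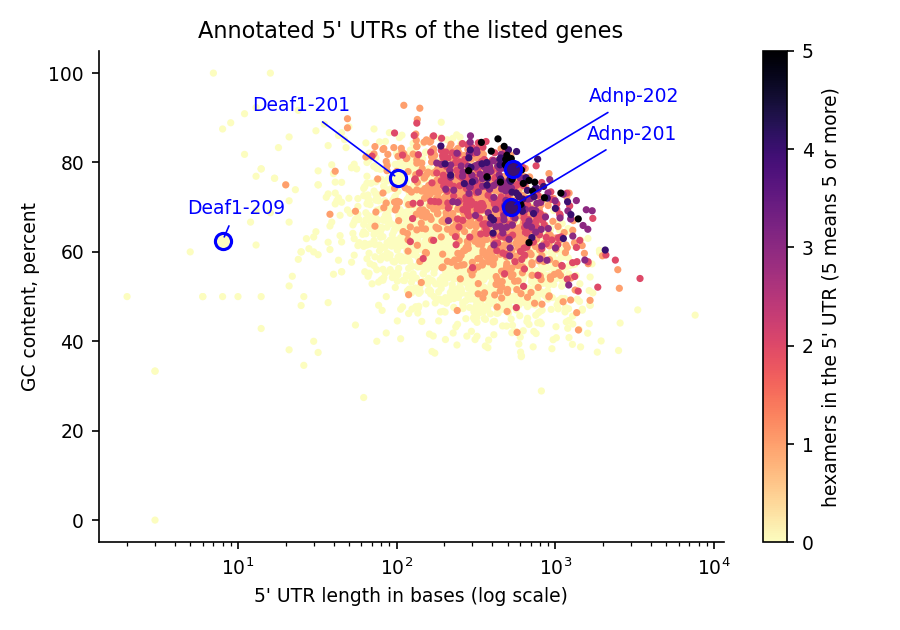
Length in bases (log scale) and GC content in percent of the 5′ UTRs of the listed genes, 1 point per gene on its longest transcript, coloured by the number of hexamers. Adnp-202 (544 bases, 78.5%) and Adnp-201 (529 bases, 70.1%) sit among the points with several hexamers, and Deaf1-201 (102 bases, 76.5%) and Deaf1-209 (8 bases, 62.5%) are without one.

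The libraries were shallow and unequal. The labels give 6 libraries per condition, more than the biological replicates named in the study's methods, so some of the libraries counted in n may not be separate cultures. The values labelled depolarized replicate 5 are those of resting replicate 5, and were used once, which left 6 resting and 5 depolarized libraries. The resting libraries held 306 to 3224 tags on 5′ UTRs and the depolarized libraries 264 to 5240, 15767 in all. Of 14 neuron marker genes 10 were listed, each with a tag (58 resting and 143 depolarized tags in sum, 2171 to 42484 CPM at rest and 9107 to 20105 CPM after depolarization), led by Syt1, the calcium sensor of synaptic vesicles, while Tubb3, Snap25, Slc17a6 and Tbr1 were not listed. Of 8 astrocyte markers 2 were listed, Slc1a2 with 10 tags and Sox9 with 1 (at most 1241 CPM at rest and 1145 CPM after depolarization), and Gfap, Aqp4 and Aldh1l1 were not. None of 8 markers of the oligodendrocyte lineage was listed, and of 7 microglial markers only Aif1, with 1 tag.

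At rest, Adnp had 1 tag in replicate 1, 1 in replicate 2 and 0 in replicates 3, 4, 5 and 6. After depolarization it had 0 tags in replicate 1, 20 in replicate 2, 2 in replicate 3, 1 in replicate 4 and 0 in replicate 6. The groups overlapped, since the deepest depolarized library, replicate 1, had no Adnp tag, and relative to depth only depolarized replicate 2 stood above every resting library. As a share of the 5′ UTR tags of a library, depolarized replicate 2 gave 2.09% (Wilson 95% interval 1.36 to 3.21%). Depolarized replicates 3 and 4 gave 0.0874% (0.0240 to 0.318%) and 0.182% (0.0322 to 1.02%), and resting replicates 1 and 2 gave 0.0310% (0.00548 to 0.175%) and 0.270% (0.0476 to 1.51%). The share in depolarized replicate 4 thus lay between those of the resting libraries, and its interval overlapped both. In depolarized replicate 1, 0 of 5240 tags allows a share of up to 0.0573%, below the whole interval of replicate 2 of the same group. The other libraries without an Adnp tag allow up to 0.323% to 1.14% by the limit of 3 counts. These limits are also below that interval, but not below the shares of the libraries with 1 or 2 tags. By its Wilson interval, depolarized replicate 6 reaches 1.43% and overlaps the interval of depolarized replicate 2.

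At rest, Deaf1 had 11 tags in replicate 1 and 0 in replicates 2, 3, 4, 5 and 6. After depolarization it had 9 tags in replicate 1, 0 in replicate 2, 78 in replicate 3, 0 in replicate 4 and 0 in replicate 6. Here too the groups overlapped, and depolarized replicate 3 alone stood above the resting libraries. Its share was 3.41% (2.74 to 4.23%), against 0.341% (0.191 to 0.610%) in resting replicate 1 and 0.172% (0.0904 to 0.326%) in depolarized replicate 1. Between these replicates of the same number the resting share was the higher, with intervals that overlapped. Depolarized replicate 2, with 0 of 955 tags, allows up to 0.314%, and the remaining libraries at 0 allow 0.323% to 1.14%. All of these limits lie below the interval of depolarized replicate 3. A share as in resting replicate 1 would exceed this limit of 3 counts in resting replicates 5 and 6 and in depolarized replicate 2. It would not exceed their Wilson upper bounds of 0.412%, 0.419% and 0.401%, so these zeros do not separate them from resting replicate 1. In the shallower libraries it would be within both.

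**Figure D3:**
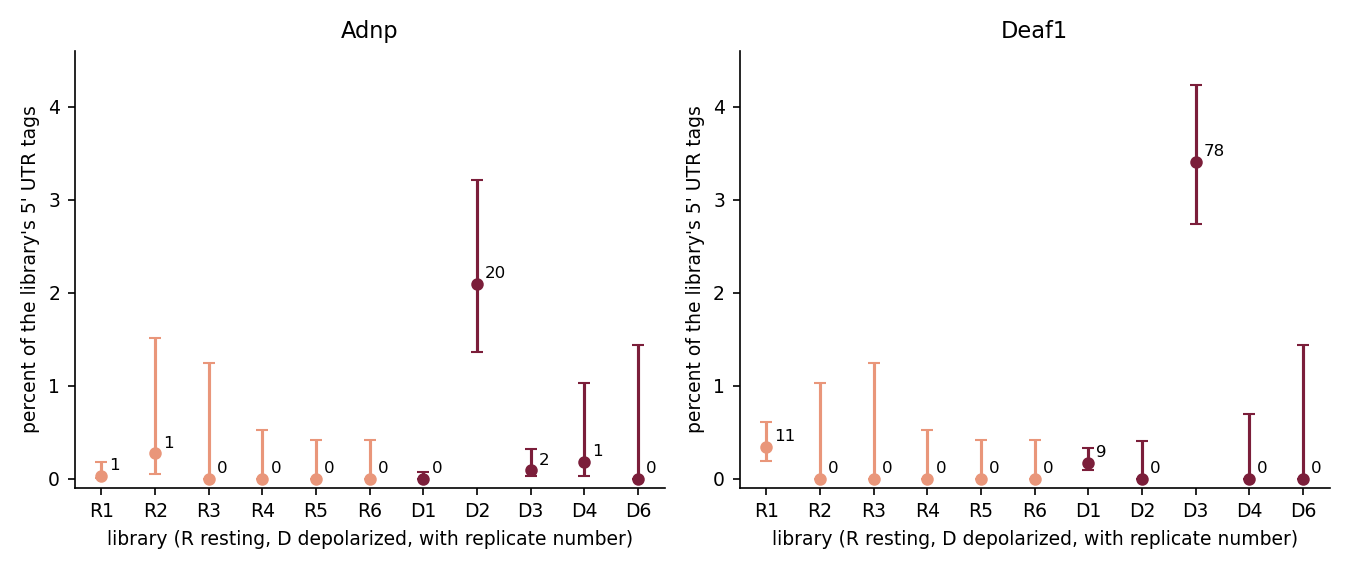
Share of each library's 5′ UTR tags that fell on Adnp (left) and Deaf1 (right), in percent, for resting (R, salmon) and depolarized (D, burgundy) replicates. Points carry the number of tags, and bars are Wilson 95% intervals for counting error. In each panel 1 depolarized library stands apart, D2 with 20 Adnp tags and D3 with 78 Deaf1 tags.

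The libraries with most tags were different ones for the pair. Depolarized replicate 2, the top library of Adnp, had no Deaf1 tag, and depolarized replicate 3, the top library of Deaf1, had 2 Adnp tags. Per 100 bases of the longest annotated 5′ UTR, Adnp had 3.68 tags in depolarized replicate 2. This was the 7th highest density among 484 5′ UTRs with a tag there and an annotated length. Deaf1 had 76.5 tags per 100 bases in depolarized replicate 3, the highest of 945 such 5′ UTRs. The Deaf1 density rests on the 102 bases of Deaf1-201 and would change with another 5′ UTR.

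Summed over libraries, Adnp had 2 resting and 23 depolarized tags, or 0.0309% of 6471 (0.00848 to 0.113%) and 0.247% of 9296 (0.165 to 0.371%). The ratio of these shares was 8.01, with an exact 95% interval of 1.98 to 70.05. Deaf1 had 11 resting and 87 depolarized tags, or 0.170% (0.0949 to 0.304%) and 0.936% (0.759 to 1.15%), a ratio of 5.51 (2.93 to 11.4). These intervals hold counting error only and leave out the spread between libraries. Tags were collapsed by sequence rather than counted by a molecular identifier as far as the sources state.

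Averaged over libraries in CPM (tags scaled by the total of the library), Adnp had 500.9 ± 1082 (SD, n = 6) at rest and 4728 ± 9096 (n = 5) after depolarization. Deaf1 had 568.7 ± 1393 (n = 6) and 7162 ± 15072 (n = 5), and with TMM library sizes its means were 1121 and 12284 CPM. In both genes the difference of the means was smaller than the SD of the depolarized libraries. The log2 fold change fitted by edgeR over libraries was 3.55 (SE 1.17) for Adnp and 3.10 (SE 1.18) for Deaf1, against a median of 0.52 over the 317 5′ UTRs with at least 10 tags. That median was 0.38 when libraries were scaled by their totals, so a small upward shift belongs to the fit as a whole. Each replicate's resting and depolarized samples were pooled for library preparation, and with the replicate number as a block the fold changes were 2.05 (SE 1.69) for Adnp and 1.63 (SE 1.97) for Deaf1.

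Beside these values stands the background of the same comparison. By edgeR's quasi-likelihood test with Benjamini-Hochberg adjustment, 0 of 317 5′ UTRs were higher after depolarization at an adjusted P value below 0.05 (0%) and 0 were lower (0%), with 24 and 1 at an unadjusted P value below 0.05. DESeq2 also called 0 in each direction, with 5 and 0 unadjusted. The study took a binomial P value below 0.2 as threshold, without stating the sides of its test, and reports a larger set than the one here. On tags pooled by condition, with a two-sided binomial test at that threshold, 171 of 3280 5′ UTRs had more tags after depolarization (5.21%) and 148 had fewer (4.51%). That near balance depended on the scaling, since with TMM library sizes 233 had more and 90 fewer. Adnp and Deaf1 are both among those with more, by the contrast that chose them.

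The summed difference of each gene depended on 1 library. Without depolarized replicate 2, Adnp had 3 of 8341 depolarized tags (0.0360%) against 2 of 6471 resting tags (0.0309%), a ratio of 1.16 with an exact interval of 0.133 to 13.9. The mean of the remaining depolarized libraries was then 673.9 ± 869.0 CPM (n = 4), beside 500.9 CPM at rest. The resting mean also rested on few tags, and without resting replicate 2, with its 1 tag, it was 62.0 CPM. Without depolarized replicate 3, Deaf1 had 9 of 7008 depolarized tags (0.128%) against 11 of 6471 resting tags (0.170%), a ratio of 0.755 (0.277 to 2.01). The depolarized mean fell to 429.4 ± 858.8 CPM (n = 4), below the resting mean of 568.7 CPM, and the edgeR log2 fold change to -0.36.

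Other libraries moved the size but not the direction. Without depolarized replicate 1, which had 5240 tags and 0 on Adnp, the ratio was 18.3 (4.53 to 161) for Adnp and 11.3 (5.99 to 23.6) for Deaf1. Without resting replicate 2 the Adnp ratio was 15.1 (2.45 to 622), with 1 resting tag left. Resting replicate 1 held every resting Deaf1 tag. Without it Deaf1 was at least 10.1-fold higher after depolarization, counted against 3 tags over the resting group.

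**Figure D4:**
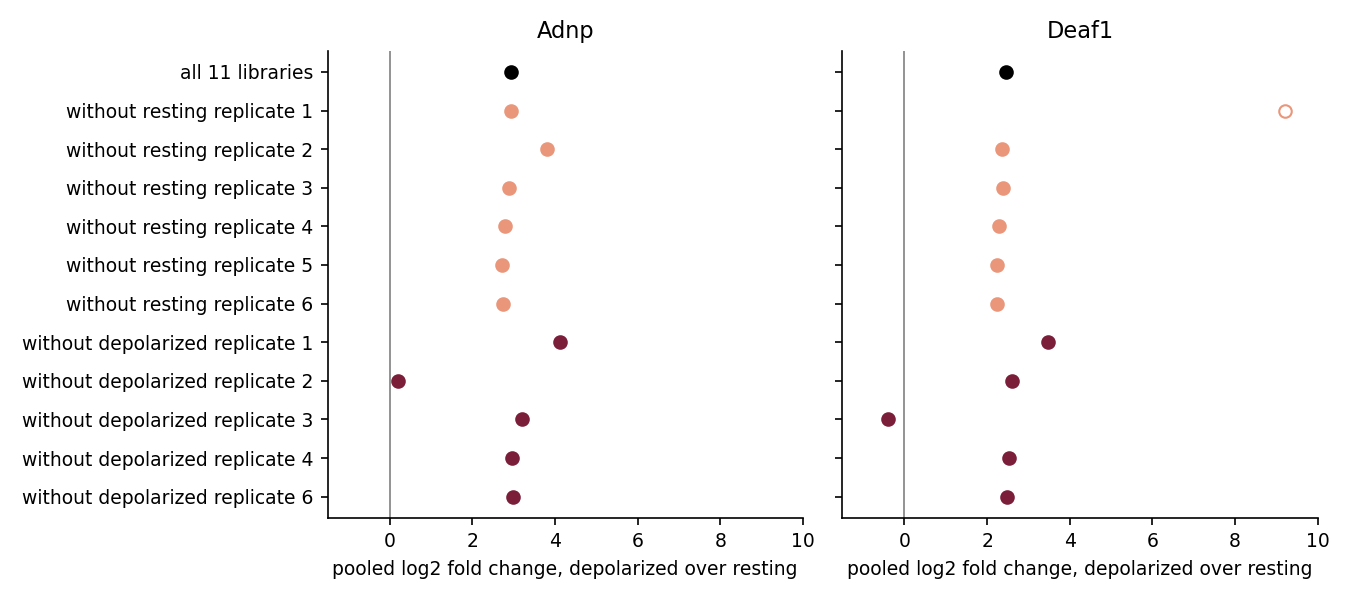
Log2 ratio of depolarized to resting tags of Adnp (left) and Deaf1 (right), summed over libraries, scaled by depth and with a pseudocount of 0.1, with all 11 libraries (black) and with each left out in turn. The open circle has no resting tag, so its place is set by the pseudocount. The values fell to 0.21 for Adnp without depolarized replicate 2 and to -0.40 for Deaf1 without depolarized replicate 3.

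How far the tags of a gene were gathered in 1 library comes from the same tags that chose the genes, and is given as a description. Of the 25 Adnp tags 80.0% came from 1 library, and tags came from 5 of 11 libraries. Of the 98 Deaf1 tags 79.6% came from 1 library, and tags came from 3 libraries. Over the 317 5′ UTRs with at least 10 tags, the median share in the top library was 43.6% and the median number of libraries with a tag was 5.

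Adnp therefore had the usual number of libraries with a tag, and its share in 1 library was unusual. As many or fewer libraries with a tag were seen for 168 5′ UTRs (53.0%), and a share in 1 library at least as high for 10 (3.15%), Adnp included. For Deaf1, 3 or fewer libraries were seen for 50 5′ UTRs (15.8%) and as high a share in 1 library for 11 (3.47%), Deaf1 included. The other 5′ UTRs with as high a share had at most 41 tags. Among the 33 with at least 50 tags, every other one had tags in at least 6 libraries, against 3 for Deaf1. Those 3 libraries were also the deepest, with 5240, 3224 and 2288 tags in all, and a part of depth in this spread was not tested. With 70% of the tags in 1 library as the bound, 27 5′ UTRs were this concentrated, 19 of them in depolarized replicate 1, 4 in resting replicate 1, 2 in depolarized replicate 2 and 2 in depolarized replicate 3.

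**Figure D5:**
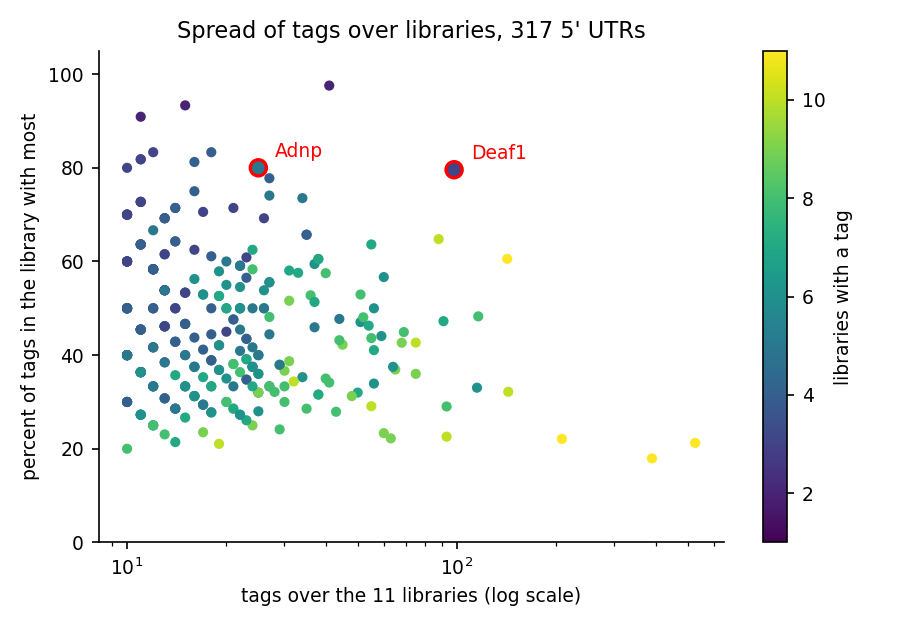
Percent of a 5′ UTR's tags in the library with most, against its tags over the 11 libraries (log scale), for the 317 tested 5′ UTRs, coloured by the number of libraries with a tag. Adnp (25 tags, 80.0%) and Deaf1 (98 tags, 79.6%) are ringed in red, and no other 5′ UTR with as many tags as Deaf1 has so large a share in 1 library.

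The profiles of Adnp and Deaf1 across the 11 libraries had little in common. Their cosine similarity, computed on square roots of CPM, where 1 means proportional profiles, was 0.201. The median similarity to the other tested 5′ UTRs was 0.385 for Adnp and 0.458 for Deaf1. Both the libraries and their depths are shared by all these profiles.

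Closest to Adnp were Pde7a (0.875), a phosphodiesterase of cyclic AMP, Plk2 (0.867), an activity-induced kinase, Npas4 (0.813), an activity-induced transcription factor, Rhob (0.810), a small GTPase, and Tsc22d1 (0.786), a leucine zipper protein. Pde7a had 40 of its 41 tags in depolarized replicate 2. Plk2 had 6 of 10 tags there, and Npas4 9 of 27. Their summed tags were 0 at rest and 10 after depolarization for Plk2, 6 and 21 for Npas4, 3 and 21 for Rhob, and 6 and 12 for Tsc22d1, which had 4 of its 18 tags in depolarized replicate 2.

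Closest to Deaf1 were Auts2 (0.975), a gene of neurodevelopmental disorder whose protein joins a Polycomb complex, St8sia1 (0.971), a sialyltransferase of ganglioside synthesis, Ywhag (0.952), a 14-3-3 protein, Enah (0.943), an actin regulator, and Peg10 (0.890), a gene of retrotransposon origin. Each of these had 10 to 13 tags, in 2 or 3 libraries, and 4 to 8 of them in depolarized replicate 3. Deaf1 had 78 there, so the likeness is one of pattern over libraries at very different numbers of tags. The libraries with Deaf1 tags were also the deepest, and how far depth shapes this likeness was not tested.

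Among the partners and reported targets of ADNP and DEAF1, Gsk3b had 51 tags and every other one had 11 or fewer. None of 9 relatives, among them Adnp2 and the SAND domain genes Gmeb1 and Gmeb2, was listed. Of 11 partners of ADNP, 6 were listed and none reached 10 tags. They had 3 resting and 10 depolarized tags in sum, with 4 on Mapre1 and 4 on Mapre3, which encode proteins of growing microtubule ends, 2 on Mapt and 1 each on Chd4, Mapre2 and 1 further gene. The single Chd4 tag was in depolarized replicate 2, the top library of Adnp. None of the 6 passed the pooled threshold, beside 5.21% with more and 4.51% with fewer tags over all 5′ UTRs. With at most 4 tags on any of them, a call for more tags was out of reach after scaling and rounding. Nothing is read from the lack of one.

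Of 10 partners and reported targets of DEAF1, 6 had a tag and 3 were tested by edgeR, with a median log2 fold change of 0.73 against 0.52 over all tested. The kinase gene Gsk3b went from 13 resting to 38 depolarized tags and passed the pooled threshold for more tags, and its edgeR log2 fold change was 0.94 (SE 0.98, adjusted P value 0.862, 8 libraries with a tag). Lmo4, which encodes a LIM domain partner of DEAF1, had 3 and 8 tags, and Eif4g3, a reported target in the eIF4G family, 3 and 7. None of the 3 was called by edgeR. On pooled tags Gsk3b was the 1 of 6 with more (16.7%, beside 5.21% over all), a single gene from which nothing is read about the list.

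Chromatin complexes around ADNP were listed only in part. Of 26 BAF genes 6 were listed, with 5 resting and 6 depolarized tags in sum and none past the pooled threshold (beside 5.21% and 4.51% over all). Each had at most 3 tags, too few for a call for more tags after scaling and rounding. Of 14 NuRD genes 7 were listed, with 13 and 24 tags. Rbbp7, a histone-binding subunit, went from 5 to 17 tags and passed the threshold for more, and Mbd3, a subunit of the same complex, went from 5 to 1 and passed that for fewer, so 1 of 7 was called in each direction (14.3%, beside 5.21% with more and 4.51% with fewer over all). For Rbbp7, the only one tested by edgeR, the log2 fold change was 1.07 (SE 1.05, adjusted P value 0.862).

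The wider group of genes with dominant or X-linked mutations in autism and intellectual disability, to which both belong by function, had 115 other genes, of which 58 were listed and 57 had a tag. On pooled tags 8 of these had more tags after depolarization (14.0%, beside 5.21% over all) and 1 had fewer (1.75%, beside 4.51%). The shares over all include 1374 5′ UTRs with 1 tag, too few to pass, and the number of tags was not matched. By edgeR 0 of the 10 tested were higher and 0 lower, with a median log2 fold change of 0.61 beside 0.52 over all tested. The summed level ran from 13072 to 26954 CPM over the resting libraries (median 17269) and from 18215 to 35602 CPM over the depolarized libraries (median 30303), so the groups overlapped.

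Single genes of this list showed how differently tags could be spread. Irf2bpl, a transcriptional regulator, had the most tags, 18 at rest and 38 after depolarization, in 6 libraries. Bcl11b, a transcription factor of deep-layer neurons, had 9 and 12 tags in 9 libraries. Bcl11b thus had fewer tags than Adnp in more libraries, with an edgeR log2 fold change of 0.10 (SE 1.03). Cul3, a ubiquitin ligase scaffold, had 8 and 10 tags in 7 libraries.

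Of 21 initiation factors and upstream reading frame factors, 6 were listed, with 11 resting and 37 depolarized tags in sum. Eif4g2 itself had 8 and 23 tags in 9 libraries and passed the pooled threshold, and its edgeR log2 fold change was 0.90 (SE 0.99, adjusted P value 0.862). It was the 1 of 6 past that threshold (16.7%, beside 5.21% over all), and none was called by edgeR.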

How the data were processed

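The authors sequenced the CLIP libraries as single-end reads, filtered, demultiplexed and trimmed them with CLIP Tool Kit (the submitters' processing notes also name cutadapt), collapsed exact duplicates, aligned them to mm10 with Rsubread and counted reads over UCSC known-gene 5′ UTRs with summarizeOverlaps, taking the longest transcript per gene. The values are the raw counts deposited by the authors, 1 table per library, not normalized. How reads with several mapping positions were treated and the strand setting are not given in the sources used here. Adnp is overlapped on its strand by Gm20716, a gene that the tables list separately, and tags of overlapping genes are uncertain.

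Each table has 3367 entries. In 1 of them the gene name is blank, with 0 tags (0%), and it was not used. The table labelled depolarized replicate 5 equals that of resting replicate 5 and has a resting heading, so it was used once, as resting replicate 5, which left 11 of 12 libraries. The adjustment for the paired preparation is given because each replicate's samples were pooled after reverse transcription, and deviations of same-numbered libraries correlated at 0.192 to 0.310 over 5 pairs. The study's methods describe biological replicates, each from several dishes, with the samples of a replicate processed together, but name fewer replicates than the labels number. Which libraries come from separate cultures is thus not settled, and part of the spread that P values measure may be technical.

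CPM and shares used library totals. Counts were tested with edgeR 4.0.16 (quasi-likelihood, TMM, at least 10 tags over all libraries, R 4.3.3), with DESeq2 1.42.0 as an alternative, after a test on simulated data. The pooled test summed tags per condition, scaled them to the mean of both totals, rounded them and used a two-sided exact binomial test with a pseudocount of 0.1 for the fold change. Intervals of shares are Wilson 95% intervals, intervals of ratios are exact conditional on the summed tags, and a count of 0 allows 3 counts. All cover counting error only. 5′ UTR features were read from GENCODE M21 (GRCm38) by gene symbol, and promoter windows from RefSeq (GRCm38.p6). Python 3.11.15 with pandas 2.3.3, scipy 1.17.1 and matplotlib 3.10.9 was used.

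Adnp, Deaf1 and all gene lists were chosen with earlier results of these data known. From each list at most the 5 genes with most tags, and any called by edgeR, are named (some are not reported here), and for each of the pair the 5 most similar 5′ UTRs. Alternatives were other scalings, filters, thresholds, tools and pseudocounts, the replicate block, subsets of replicates, each library left out, all 12 tables as labelled and the longest 5′ UTR in place of the longest transcript.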

Additional observations from a re-analysis of the deposited data

Results flagged for a closer look

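In 8 of 18 groups of libraries examined 1 library lay far from the rest of its group by Dixon's 95% critical value. Chance alone flags about 1 in 20 groups of evenly spread values, but that share is no comparison here, since Adnp and Deaf1 were chosen on these tags and most libraries are at 0, where a single tag is enough. Of Adnp these were resting replicate 2 with 2695 CPM, from 1 tag, against 310.2 CPM in the next library, and depolarized replicate 2 with 20942 CPM, from 20 tags, against 1821 CPM. Of Deaf1 they were resting replicate 1 with 3412 CPM against 0, and depolarized replicate 3 with 34091 CPM against 1718 CPM. Resting replicate 1 also had the most tags of the resting libraries, 3224 against 928 in the next, and the most 5′ UTRs with a tag, 1437 against 433. Among marker lists, the microglial sum reached 1372 CPM in resting replicate 4 from the 1 tag on Aif1, against 0 elsewhere, and the astrocyte sum 1145 CPM in depolarized replicate 1, against 0 in the other depolarized libraries. Neither of these libraries is one where the tags of Adnp or Deaf1 stood apart after depolarization.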

How the results depend on the processing

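Over libraries left out in turn, the log2 ratio on pooled tags ran from 0.21 to 4.12 for Adnp and from -0.40 to 9.20 for Deaf1, and the edgeR log2 fold change from 3.28 to 4.25 and from -0.36 to 6.41. Deaf1 changed direction without depolarized replicate 3, and Adnp, without depolarized replicate 2, had fewer than 10 tags and was not tested. Mean CPM ran from 62.0 to 601.1 and from 673.9 to 5910 for Adnp, and from 0 to 682.4 and from 429.4 to 8952 for Deaf1, at rest and after depolarization. With the replicate block the fold changes were 2.05 and 1.63, and 0 5′ UTRs were called in each direction (1 and 0 at an unadjusted P value below 0.05). With replicates 4 to 6 alone the pooled value of Adnp was 4.45, from 1 tag against 0.

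The edgeR count of 0 higher became 1 with library totals, 1 with replicates 1 to 3 alone, and 0 to 2 with a library left out (2 without depolarized replicate 1, and 1 without resting replicate 1 and without depolarized replicates 4 and 6). That of 0 lower became 1 with replicates 4 to 6 alone. On pooled tags the counts of more and fewer were 84 and 41 with the threshold of P set to 0.05, 14 and 10 with that threshold on adjusted P, 44 and 17 with replicates 4 to 6 alone, and 141 to 189 and 85 to 163 with a library left out (85, 98 and 92 fewer without depolarized replicates 1, 2 and 3), and 233 and 90 with TMM library sizes. The longest 5′ UTR of Deaf1 had 102 bases and 76.5% GC against 8 bases and 62.5% on the longest transcript. No other alternative changed the direction of either gene. Depth limits all of this: 1374 5′ UTRs had 1 tag over all libraries.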
